A study of Mus musculus with 6 samples.

Results

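Leukotrienes and prostaglandins are signaling lipids made from arachidonic acid, a fatty acid held in membrane phospholipids. Cyclooxygenases turn free arachidonic acid into prostaglandin H2, from which terminal synthases make the individual prostaglandins. The lipoxygenase encoded by Alox5, helped by the membrane protein encoded by Alox5ap, makes leukotriene A4 instead. Lta4h converts leukotriene A4 into leukotriene B4, and Ltc4s joins it to glutathione to give leukotriene C4, the parent of the cysteinyl leukotrienes. In brain, prostaglandins and leukotrienes are known mainly from inflammation and injury.

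Here 10 genes that encode these enzymes and the helper protein were followed in mouse astrocytes with and without JAG1 overexpression. They were taken by symbol from 23282 gene rows, where they are written as LTC4S, ALOX5, ALOX5AP, LTA4H, PTGS1, PTGS2, PTGES, PTGES2, PTGIS and PTGDS, and all 10 were found. The group was put forward because Ltc4s had already been seen among the largest falls between control and JAG1-overexpressing cells. The values of the 10 genes in that comparison are therefore a description, given without p-values, and where one is said to have passed the threshold of the fit or not, that is part of the description and not a test.

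All cells came from an astrocyte line of murine brain that the labels call Ink4a -/- and the study calls Ink4a/Arf-/-, which lacks the tumor suppressors Ink4a and Arf. The control group received the empty vector pcDNA3.1-puro (3 libraries), and the JAG1 group received pcDNA3.1-JAG1-puro (3 libraries). The labels call the control genotype WT and the other genotype JAG1 overexpression, although the Ink4a/Arf deletion was shared by both. Nothing in the sources used here says whether the cells were clones or pools, or whether each library stands for its own transfection, so the spread between libraries may be technical. Libraries read the 3' ends of polyadenylated RNA, so reads do not rise with transcript length. Some neighbouring genes had nearly equal reads in every library, and how shared reads were assigned to genes is not given in the sources used here. Levels of different genes are therefore set side by side only as an approximation. Levels are given as reads and as CPM, reads per 1e6 after TMM normalization of library size. The libraries held between 14341634 and 20489062 reads on genes. A gene with 3 reads or fewer could not be told from absent, and 3 reads equal 0.148 to 0.206 CPM depending on the library and covers counting error only.

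Jag1 itself was at 8.99, 10.8 and 11.2 CPM in the control libraries and at 15.2, 13.6 and 13.8 CPM in the JAG1 libraries. The groups did not overlap, and the log2 fold change was 0.46 (standard error, SE, 0.11, adjusted p = 0.00446, edgeR's quasi-likelihood test). Reads per gene do not show whether they came from the plasmid. Of the astrocyte markers checked, Gfap and Aqp4 had 0 reads in every library, whereas Sox9, Gja1 and Glul were expressed. All 6 astrocyte markers with enough reads to test were lower in JAG1-overexpressing cells, as were 27.7% of all tested genes. The other 4 were too low to test. The list summed to between 337 and 399 CPM in control libraries and between 123 and 137 CPM in JAG1 libraries. Most of that sum came from Sox9, which fell from 181 to 18 CPM, and Gja1, which fell from 151 to 96.7 CPM. In bulk RNA, fewer cells of a type and less RNA per cell cannot be told apart.

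Of the 10 genes, 6 had enough reads to be tested. Ltc4s, Ptgs1 and Ptgs2 were lower in JAG1-overexpressing cells at an adjusted p under 0.05, Ptgds was higher, and Lta4h and Ptges2 did not pass. Alox5ap and Ptges had reads but too few to test, and Alox5 and Ptgis had none. Over all 11712 tested genes, 55.1% passed the same threshold, 27.4% as higher and 27.7% as lower. With a limit of at least 2-fold the enzymes counted were again 3 lower and 1 higher, and 8.49% and 5.46% of all tested genes were lower and higher. The median log2 fold change was -0.64 over the 6 tested enzymes and 0 over all tested genes. Nothing is read from these counts, since the enzymes were chosen from this comparison.

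**Figure D1:**
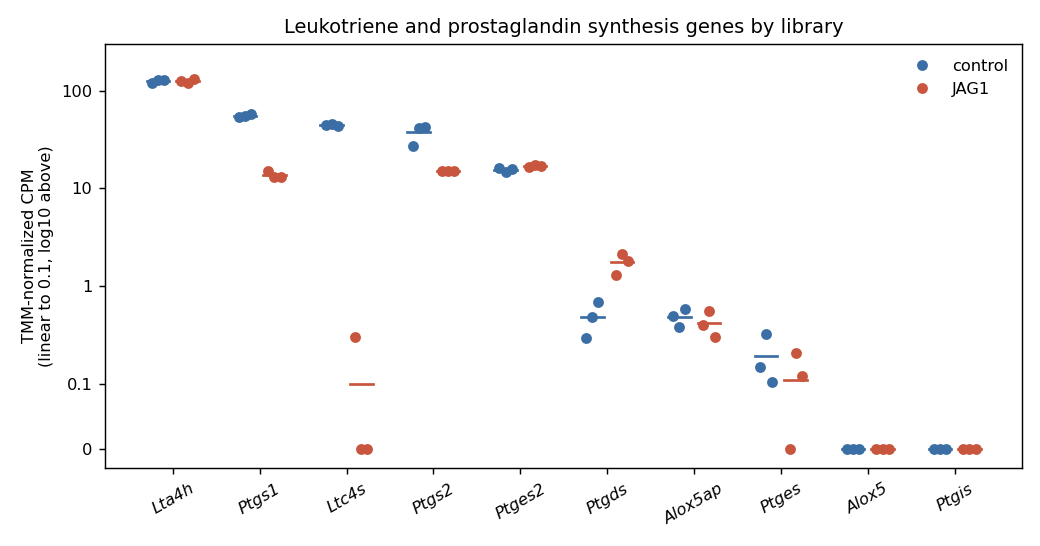
Normalized level (CPM, linear up to 0.1 and on a log10 scale above) of each of the 10 genes in the 3 control libraries (blue) and the 3 JAG1 libraries (red). Points are libraries and short lines are group means. Ltc4s falls from 44.4 CPM to 0.0997 CPM on average, both cyclooxygenase genes fall, Ptgds rises from a low level, and Alox5 and Ptgis sit at 0 in all libraries.

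The sequences around transcription starts of the genes that moved are shown because the study places its JAG1 intracellular domain complex at promoters through SMAD3, a factor that binds the letters GTCTG. Each window runs from 250 bases before to 50 bases after a transcription start, 5′ to 3′ on the gene's own strand, taken from RefSeq on GRCm38.p6. For Ptgs1 and Ptgds the start used in that table is not the outermost one, and their windows lie inside the annotated span of the gene. Capitals mark GTCTG or its reverse complement CAGAC. The window of Ltc4s is chr11:50238483-50238782 on the minus strand, that of Ptgs1 is chr2:36230176-36230475 on the plus strand, that of Ptgs2 is chr1:150099781-150100080 on the plus strand and that of Ptgds is chr2:25469700-25469999 on the minus strand.
Ltc4s: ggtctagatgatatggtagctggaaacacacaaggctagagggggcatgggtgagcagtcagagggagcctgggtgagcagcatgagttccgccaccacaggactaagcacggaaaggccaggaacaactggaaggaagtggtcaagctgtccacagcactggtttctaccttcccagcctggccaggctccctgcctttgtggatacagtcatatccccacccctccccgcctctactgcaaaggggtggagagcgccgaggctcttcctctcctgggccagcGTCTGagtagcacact
Ptgs1: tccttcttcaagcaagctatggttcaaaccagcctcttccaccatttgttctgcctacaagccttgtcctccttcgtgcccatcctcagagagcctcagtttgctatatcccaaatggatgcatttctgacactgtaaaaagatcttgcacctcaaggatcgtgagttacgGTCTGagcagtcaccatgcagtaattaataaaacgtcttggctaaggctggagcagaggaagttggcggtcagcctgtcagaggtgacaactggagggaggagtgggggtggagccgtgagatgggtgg
Ptgs2: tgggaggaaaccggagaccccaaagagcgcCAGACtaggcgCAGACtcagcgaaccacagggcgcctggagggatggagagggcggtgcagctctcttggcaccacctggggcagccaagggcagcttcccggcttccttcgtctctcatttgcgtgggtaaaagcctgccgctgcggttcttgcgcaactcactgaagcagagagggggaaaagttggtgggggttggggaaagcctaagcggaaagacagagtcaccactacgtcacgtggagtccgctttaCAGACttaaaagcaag
Ptgds: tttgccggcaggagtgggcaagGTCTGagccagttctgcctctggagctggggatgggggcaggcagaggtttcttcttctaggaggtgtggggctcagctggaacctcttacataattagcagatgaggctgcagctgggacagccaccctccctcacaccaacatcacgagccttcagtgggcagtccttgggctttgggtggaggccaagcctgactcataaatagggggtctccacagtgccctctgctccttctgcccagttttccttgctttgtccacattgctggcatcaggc

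The letters GTCTG occurred on either strand in 1 place in the windows of Ltc4s, Ptgs1 and Ptgds and in 3 places in that of Ptgs2. They also occurred in 1 place in the windows of Lta4h and Ptges2, whose transcripts did not pass the threshold, and in those of Alox5 and Ptges. In all, 8 of the 10 genes had a window in the table and each held at least 1 match. Of all 32851 windows of that length, 49.6% held at least 1 match and 3.9% held at least 3. GTGGGAA, letters bound by the DNA-binding partner of NOTCH, was found on either strand only in the window of Ptges, and in 6.38% of all windows. Like those of Ptgs1 and Ptgds, the window of Ptges lies inside the annotated span of its gene and not at the outermost start. TATAAA was in none of the 8 windows, against 13.6% of all windows. The windows of Ltc4s and Ptgs1 held 6 CpG pairs each, that of Ptgds held 2 and that of Ptgs2 held 16, and the median of all windows was 7. Matches of letters describe the sequence only and do not show binding.

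Ltc4s (LTC4S) lies on chromosome 11 (GRCm38, 50238532 to 50236461 on the minus strand). Its control libraries held 905, 840 and 832 reads, or 44.7, 45.1 and 43.5 CPM. The JAG1 libraries held 6, 0 and 0 reads, or 0.299, 0 and 0 CPM. The control libraries were close together and far above every JAG1 library, and all the reads of the JAG1 group came from replicate 1. The pooled level in control was 378 times that in JAG1-overexpressing cells, with a 95% counting interval of 173 to 1030 from the exact binomial method. The fitted log2 fold change was -8.48 (SE 0.29). Without JAG1 replicate 1 the fit gave -12.63, which is set by the small number the model adds to counts of 0, and against the level of 3 reads in a library the control level was at least 215-fold higher.

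Ltc4s is best known from mast cells and macrophages, so markers of those cells were checked beside it. Of 7 mast cell markers, 5 had 0 reads in every library, among them Cpa3 and Fcer1a. The 17 microglia and macrophage markers summed to between 2.47 and 2.87 CPM in control and between 2.98 and 4.29 CPM in JAG1-overexpressing cells. Ptprc, Itgam and C1qa had at most 4 reads in a library. The 2 that had enough reads to test, Cx3cr1 and Laptm5, were both higher in JAG1-overexpressing cells, as were 27.4% of all tested genes. The libraries of the groups overlapped for Laptm5. Fcer1g, which mast cells and macrophages share, was too low to test, with 5, 6 and 2 reads in control and 1, 0 and 0 reads in JAG1 libraries. Control replicate 3 and all JAG1 libraries were thus within the limit of 3 reads. Tpsab1, a mast cell marker also too low to test, had 4, 9 and 1 reads in control and 8, 5 and 12 reads in JAG1 libraries. The part of such cells in the fall of Ltc4s was not tested.

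The genes next to Ltc4s did not share its level of change. Within 500 kb, 9 other genes were tested. Of these, 2 were higher, 5 lower and 2 did not pass, where 27.4% of all tested genes were higher and 27.7% lower. Mgat4b, which encodes a glycosyltransferase and lies 1.4 kb from Ltc4s, fell from 180 to 143 CPM, with a log2 fold change of -0.33 (SE = 0.05 and adjusted p = 0.000189). On the other side, Maml1, which encodes a NOTCH coactivator 17.1 kb away, was at 9.68 CPM in control and 9.12 CPM in JAG1-overexpressing cells (log2 fold change -0.08, SE 0.15). Sqstm1, the gene of an autophagy receptor, fell by 0.78 on the log2 scale (adjusted p = 2.28e-07). The neighbour with the largest fall was Adamts2, which encodes a procollagen protease 363.6 kb away and went from 18.9 to 0.501 CPM (log2 fold change -5.2, SE 0.21). All p-values here are from edgeR's quasi-likelihood test, adjusted over all tested genes.

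**Figure D2:**
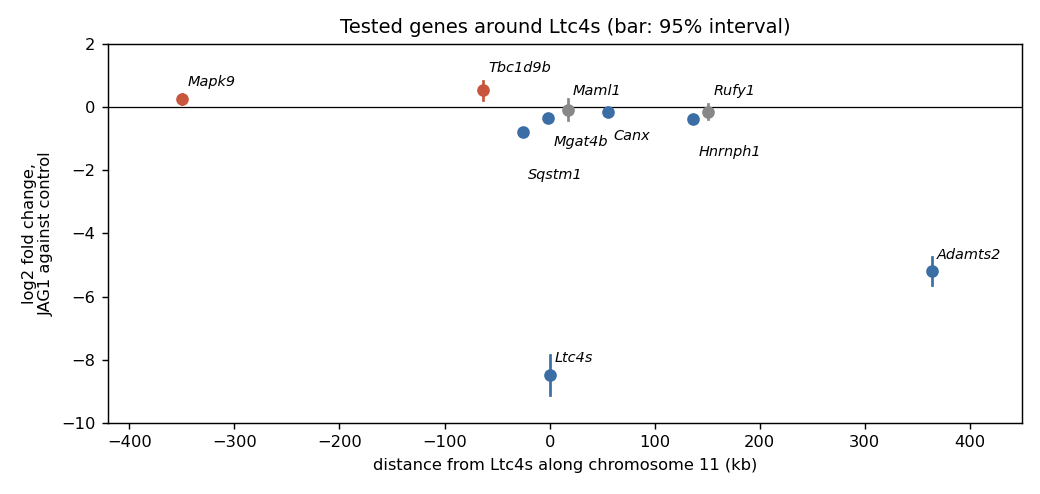
Log2 fold change (JAG1 against control) of Ltc4s and the 9 other tested genes within 500 kb, by distance in kb along chromosome 11. Bars are 95% intervals, red is higher, blue is lower and grey did not pass the threshold. The genes within 151 kb of Ltc4s lie between -0.78 and 0.53, while Ltc4s is at -8.48 and Adamts2 at -5.2.

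The genes that make leukotriene A4, the lipid that Ltc4s acts on, had few or no reads in both groups. Alox5, the lipoxygenase gene on chromosome 6, had 0 reads in all 6 libraries, which allows a level of up to 0.148 to 0.206 CPM depending on the library. Alox5ap on chromosome 5 had 10, 7 and 11 reads in control and 8, 8 and 5 reads in JAG1 libraries. These are 0.482 ± 0.1 and 0.418 ± 0.124 CPM (SD, n = 3), and the groups overlapped. The ratio of JAG1 to control for its pooled reads was 0.852, with a counting interval of 0.46 to 1.55. That interval covers counting error only, not variation between libraries, and a ratio of no change lies within it.

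Lta4h, which encodes the hydrolase that makes leukotriene B4 and also acts as an aminopeptidase, had the highest level of the 10 genes in both groups. It had 119, 128 and 128 CPM in control and 125, 121 and 132 CPM in JAG1 libraries. The groups overlapped, and the log2 fold change was 0.01 with a 95% interval of -0.11 to 0.14. Among the 10 genes, the one for leukotriene B4 thus kept a level of 126 CPM in JAG1-overexpressing cells, while Ltc4s was at 0.0997 CPM. Mgst2, which is outside the 10 and is also known to make leukotriene C4, was at 58.2 CPM in control and 10.2 CPM in JAG1-overexpressing cells.

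Ptgs1 (PTGS1) encodes cyclooxygenase-1, the form that most cells express steadily. It had 1094, 1028 and 1092 reads in control and 300, 191 and 217 reads in JAG1 libraries. The levels were 54, 55.2 and 57.1 CPM against 15, 13.1 and 13.2 CPM, so that every JAG1 library lay far below every control library. The log2 fold change was -2.01 (SE 0.08), or 4.02-fold lower. The nearest tested gene, Mrrf, was at 8.8 CPM in control and 9.1 CPM in JAG1-overexpressing cells.

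Ptgs2 (PTGS2) encodes cyclooxygenase-2, the form induced by growth factors and inflammatory signals. Control libraries had 27.4, 41.7 and 42.8 CPM, and each JAG1 library had 15.1 CPM. The groups did not overlap, but control replicate 1 lay well below the other control libraries, and the control SD was 8.63 CPM. The SD of the JAG1 libraries was 0.037 CPM, less than counting error alone gives at their 303, 220 and 248 reads, so it does not measure their spread. The log2 fold change was -1.3 (SE 0.15), or 2.47-fold lower. Ptgs2os, a noncoding gene 0.2 kb from Ptgs2, was at 1.83 and 1.18 CPM, a log2 fold change of -0.62 that did not pass the threshold (adjusted p = 0.0516, edgeR). Reads of neighbouring genes on opposite strands cannot be told apart where the counting did not use strand, which is not given in the sources used here.

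The cyclooxygenase reads together fell from 92.7 ± 9.97 to 28.9 ± 1.03 CPM upon JAG1 overexpression (SD, n = 3). The part of these reads that came from Ptgs2 was 33.6%, 43% and 42.9% in control and 50.2%, 53.5% and 53.3% in JAG1 libraries. In control the Ptgs1 level was above that of Ptgs2 in every library. In the JAG1 libraries their reads were nearly equal in replicate 1 (300 and 303). Those of Ptgs2 were slightly more numerous in replicates 2 (191 and 220) and 3 (217 and 248), differences that counting error alone could give.

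**Figure D3:**
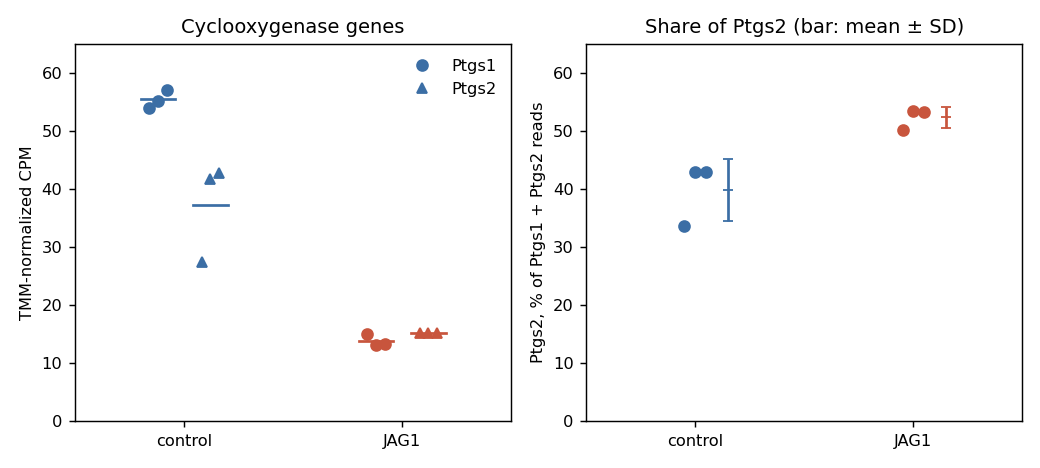
Left, level in CPM of Ptgs1 (circles) and Ptgs2 (triangles) in control (blue) and JAG1 (red) libraries, with lines at group means. Right, Ptgs2 as a percent of the reads of both genes, with the mean ± SD. Both genes are lower in the JAG1 libraries, and the share of Ptgs2 goes from 39.8 ± 5.39% to 52.4 ± 1.84% (SD, n = 3).

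Among the terminal synthases, Ptgds was the one that rose. It encodes the lipocalin-type prostaglandin D synthase, which is known from leptomeninges, choroid plexus and oligodendrocytes. It had 6, 9 and 13 reads in control and 26, 31 and 30 reads in JAG1 libraries, or 0.486 ± 0.192 and 1.75 ± 0.423 CPM (SD, n = 3). Every JAG1 library was above every control library. The log2 fold change was 1.82 with a wide 95% interval of 1.03 to 2.61, and the level stayed far below those of the cyclooxygenases. Oligodendrocyte markers summed to between 2.14 and 3.27 CPM in control and 0.668 to 1.2 CPM in JAG1-overexpressing cells, with Mog, Mag and Sox10 at 0 reads in every library. Of the 5 tested genes on the leptomeningeal fibroblast list, 1 was higher and 3 lower, against 27.4% and 27.7% of all tested genes. The list went from between 306 and 311 CPM to between 236 and 274 CPM. Most of that sum came from Col1a1 and Foxc1, which were lower, and Dcn fell from 2.22 to 0.264 CPM. Col1a2, a collagen gene, went the other way, from 3.35 to 50.7 CPM, and Pdgfra had a log2 fold change of 0.34 that did not pass. The part of such cells in the rise of Ptgds was not tested.

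Ptges2, which encodes a membrane-associated prostaglandin E synthase, had 16.2, 14.8 and 15.6 CPM in control and 16.7, 17.4 and 16.9 CPM in JAG1 libraries. The JAG1 libraries lay just above the control libraries, but the log2 fold change was 0.13 with a 95% interval of -0.06 to 0.31, and it did not pass the threshold. Groups did not overlap for 5 of the 6 tested enzymes, and for 62.0% of all tested genes. Ptges, the inducible prostaglandin E synthase often coupled to cyclooxygenase-2, had 3, 6 and 2 reads in control and 0, 3 and 2 in JAG1 libraries. Ptgis, the prostacyclin synthase, had 0 reads in every library. The annotation has other genes that overlap Alox5, Ptges and Ptgis, so their low counts are uncertain.

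The order of levels changed between the groups. In control it was Lta4h (125 CPM), Ptgs1 (55.4), Ltc4s (44.4), Ptgs2 (37.3), Ptges2 (15.6), Ptgds (0.486), Alox5ap (0.482) and Ptges (0.192). Ptgds and Alox5ap did not differ beyond their spread, and Ltc4s and Ptgs2 were less than 1 SD of Ptgs2 apart. In JAG1-overexpressing cells Lta4h (126 CPM) stayed first, followed by Ptges2 (17), Ptgs2 (15.1), Ptgs1 (13.8), Ptgds (1.75), Alox5ap (0.418), Ptges (0.109) and Ltc4s (0.0997). The means of the last pair were below the level of 3 reads, and Ptgs2 and Ptgs1 did not differ beyond counting error in any JAG1 library. None of the 10 genes lies on chromosome 15 or 19, where the tested genes had median log2 fold changes of -0.54 and 0.6. They are spread over 6 chromosomes, with 5 of them on chromosome 2.

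The rest of the pathway was then read from the same fit with a list of 72 other genes that free, activate, convert, carry or sense these lipids. Of these, 40 had enough reads to test, and 16 were higher and 15 lower at an adjusted p under 0.05. These are 40% and 37.5% of the tested genes of the list, where 27.4% and 27.7% of all tested genes were higher and lower. The median log2 fold change of the list was 0.07. Without the 6 tested genes on chromosomes 15 and 19, 34 were left, of which 11 were higher and 15 lower, and the median was -0.11. The list was chosen with earlier results known and its roles hold few tested genes, so nothing is read from counts by role.

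**Figure D4:**
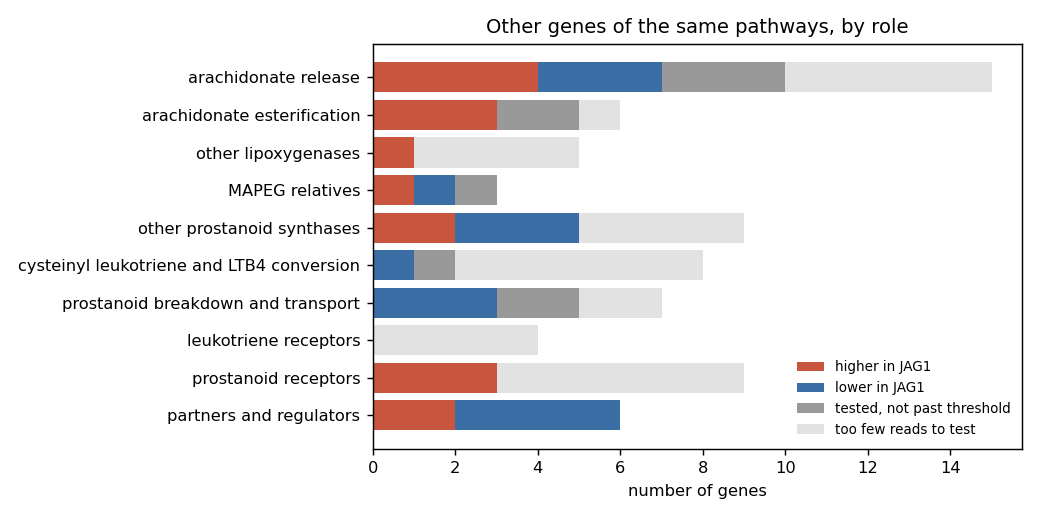
Number of the 72 other pathway genes in each role that were higher (red), lower (blue), tested without passing the threshold (grey) or too low to test (light grey). All 3 tested prostanoid receptor genes were higher, against 27.4% of all tested genes, and no leukotriene receptor gene had enough reads to test.

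Genes of arachidonate release were split, with 4 higher, 3 lower and 3 that did not pass. Pla2g4a, the cytosolic phospholipase A2 that feeds both pathways and lies 138.7 kb from Ptgs2, was at 19.7 ± 4.11 CPM in control against 19.5 ± 0.655 CPM with JAG1 (SD, n = 3) (log2 fold change -0.02, SE 0.13). Mgll, the monoacylglycerol lipase that frees arachidonic acid from an endocannabinoid in brain, rose from 1.44 to 6.71 CPM, with a log2 fold change of 2.22 (SE = 0.2 and adjusted p = 3.16e-06). Faah, which breaks down another endocannabinoid, fell by 1.67 on the log2 scale (adjusted p = 0.00288, edgeR), and Pla2g4c, another cytosolic phospholipase, by 1.26 (adjusted p = 0.00321, edgeR).

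Of the 5 tested genes that put arachidonic acid into membranes, 3 were higher and none lower, against 27.4% and 27.7% of all tested genes. Acsl4, an acyl-CoA synthetase that prefers arachidonic acid, rose from 109 ± 5.57 to 150 ± 5.15 CPM (SD, n = 3), and the log2 fold change was 0.46 (adjusted p = 4.05e-05, edgeR). Acsl3 rose by a log2 fold change of 0.33 (adjusted p = 0.000154) and Mboat7, which loads arachidonic acid onto phosphatidylinositol, by 0.3 (adjusted p = 0.0163), both from edgeR. The call for Mboat7 was lost when control replicate 2, control replicate 3, JAG1 replicate 1 or JAG1 replicate 2 was left out (adjusted p between 0.0516 and 0.0668, edgeR). Lpcat3 did not pass (log2 fold change 0.12, adjusted p = 0.0978, edgeR), but did so without JAG1 replicate 2 (0.17, adjusted p = 0.0273). Of the other lipoxygenases, Alox8 was tested and rose from 0.696 to 1.51 CPM (log2 fold change 1.13, adjusted p = 0.00976, edgeR).

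Mgst2, a relative of Ltc4s, fell as well. It belongs to the same family of small membrane proteins and is also known to make leukotriene C4. It had 1106, 1102 and 1162 reads in control and 255, 112 and 167 in JAG1 libraries, or 58.2 ± 3.2 and 10.2 ± 2.5 CPM (SD, n = 3). Every JAG1 library was far below every control library, and the log2 fold change was -2.5 (SE 0.14, adjusted p = 5.25e-08, edgeR). Mgst1, a family member known for detoxification, rose by a log2 fold change of 0.45 (adjusted p = 0.00947, edgeR), which became 0.37 without JAG1 replicate 3 (adjusted p = 0.0502, edgeR). Mgst3 had a log2 fold change of -0.29 (adjusted p = 0.31, edgeR).

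Downstream of Ltc4s, Ggt1 encodes a transferase that removes glutamate from leukotriene C4. It had 26, 34 and 19 reads in control and 1, 0 and 0 reads in JAG1 libraries. The pooled level in control was 69.6 times that in JAG1-overexpressing cells, with a counting interval of 12.1 to 2780, and the fall passed the threshold (adjusted p = 4.21e-05, edgeR). Of the 8 genes that convert cysteinyl leukotrienes or leukotriene B4, 5 had 0 reads in every library. Cotl1 encodes an actin-binding protein that also binds the product of Alox5. It fell from 48.6 ± 1.17 to 5.92 ± 0.423 CPM (SD, n = 3), and the log2 fold change was -3.04 (SE 0.09, adjusted p = 4.37e-10, edgeR). The 4 leukotriene receptor genes were silent: Ltb4r1 had 1 read in 1 library, and Ltb4r2, Cysltr1 and Cysltr2 had 0 reads in all.

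Among the other prostanoid synthases, 2 were higher and 3 lower. Akr1c18, an aldo-keto reductase that can make prostaglandin F2α and also inactivates progesterone, had 77, 66 and 74 reads in control and 1, 1 and 0 reads in JAG1 libraries. Its pooled control level was 95.5 times that of JAG1-overexpressing cells, with a counting interval of 26.1 to 794 (adjusted p = 2.72e-07, edgeR). Gstm5, a glutathione transferase, fell from 1.92 to 0.389 CPM (log2 fold change -2.27, adjusted p = 6.97e-05, edgeR). Cbr3, a carbonyl reductase, rose by a log2 fold change of 0.6 (adjusted p = 0.000229, edgeR). Ptges3, another prostaglandin E synthase gene, rose slightly from a high level, from 446 to 508 CPM (log2 fold change 0.19, adjusted p = 0.00896, edgeR).

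Of the 5 tested genes of breakdown and transport, 3 were lower and none higher, against 27.7% and 27.4% of all tested genes. Ptgr1, a reductase that inactivates prostaglandins and leukotriene B4, fell from 31.9 ± 1.19 to 11 ± 0.663 CPM (SD, n = 3), and the log2 fold change was -1.53 (SE 0.08, adjusted p = 6.21e-08, edgeR). Ptgr3 fell by 0.83 on the log2 scale (adjusted p = 1.95e-06, edgeR). Abcc1, the exporter of leukotriene C4, had a log2 fold change of -0.2 (adjusted p = 0.0488, edgeR). That call was lost with library size alone, with limma-voom and in 4 of 6 fits that left out a library (adjusted p between 0.0511 and 0.168). Ptgr2 and Abcc4, an exporter of prostaglandins, did not pass, with log2 fold changes of 0.06 and 0.16. Without control replicate 1, Abcc4 passed as higher (log2 fold change 0.21, adjusted p = 0.0474, edgeR).

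All 3 tested prostanoid receptor genes were higher, against 27.4% of all tested genes. Ptgdr2, a receptor for prostaglandin D2, had 68, 67 and 63 reads in control and 155, 101 and 125 in JAG1 libraries, or 3.42 ± 0.159 and 7.42 ± 0.415 CPM (SD, n = 3). Its log2 fold change was 1.12 (SE 0.13, adjusted p = 3.13e-05, edgeR), and it lies on chromosome 19, where the median was 0.6. Ptger4, a receptor for prostaglandin E2, rose from 0.551 to 1.2 CPM (log2 fold change 1.12, adjusted p = 0.00867, edgeR) and lies on chromosome 15, where the median was -0.54. Ptger1, another receptor for prostaglandin E2, rose from 3.81 to 5.4 CPM (log2 fold change 0.51, adjusted p = 0.0103, edgeR). With DESeq2 the adjusted p of Ptger4 was 0.0505, and without JAG1 replicate 1 that of Ptger1 was 0.0504 with edgeR. The other 6 receptor genes were too low to test, and 3 of them had 0 reads in every library.

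Anxa1 encodes annexin A1, known as an inhibitor of phospholipase A2. It had 1475, 3071 and 4215 reads in control and 8162, 6501 and 7665 in JAG1 libraries. The level rose from 153 ± 74.6 to 440 ± 30.1 CPM (SD, n = 3), and the log2 fold change was 1.53 (SE 0.28, adjusted p = 0.000757, edgeR), and the control libraries differed widely, with replicate 1 the lowest as for Ptgs2. Anxa1 also lies on chromosome 19. Ptgfrn, which encodes a membrane protein that inhibits the prostaglandin F2α receptor, fell from 114 to 43.3 CPM (log2 fold change -1.4, adjusted p = 2.32e-08, edgeR).

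**Figure D5:**
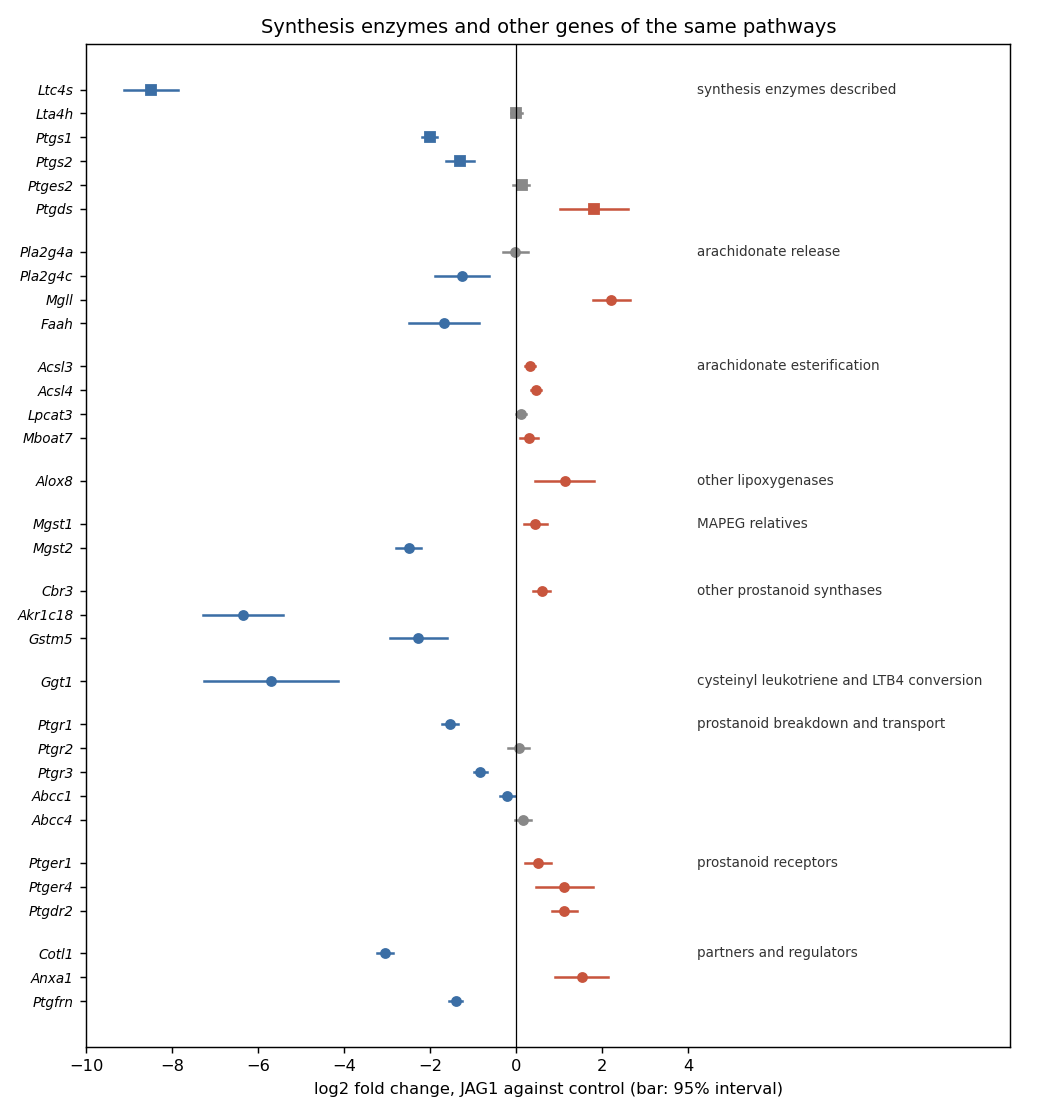
Log2 fold change (JAG1 against control) with its 95% interval for the 6 tested synthesis enzymes (squares) and named genes of the same pathways (circles), by role. Mgst3 and Ptges3 are not drawn. Red passed the threshold as higher, blue as lower and grey did not pass. Ltc4s at -8.48, Akr1c18 and Ggt1 lie farthest to the left, and their fitted values rest on at most 6 reads in the JAG1 group.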

How the data were processed

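RNA of the control (3 libraries) and JAG1 (3 libraries) groups was sequenced by the QuantSeq 3' method. The authors deposited, per library, raw read counts and log2 normalized read counts for 23282 gene symbols. The submitters' processing notes name Bowtie2, bedtools, edgeR and the builds GRCm38 and mm10; the roles and versions of these tools, the annotation, strand setting and normalization are not given in the sources used here. The counts were used, and the deposited log2 values were not. In R 4.3.3, filterByExpr in edgeR 4.0.16 (minimum count 10) left 11712 genes, TMM and the quasi-likelihood test compared the groups, and p-values were adjusted by Benjamini-Hochberg over all tested genes. Standard errors came from the F statistic. Alternatives were DESeq2 1.42.0, voom in limma 3.58.1, other scalings and filters, a fold limit of 2, a replicate block and leaving out each library. The code was tested on simulated data. For a single gene, an exact permutation test of 3 against 3 libraries cannot give p under 0.1.

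The 10 genes, lists and marker genes were chosen with earlier results of these data known. Every one of the 10 was named. From each role of the list, up to 3 passing genes with the largest change were named. Those of at least 10 CPM that did not pass were named too. Ltc4s neighbours, Mrrf, Ptgs2os, Mgst3, Ptges3, leukotriene receptors and single marker genes were named after their values were seen. Positions are from RefSeq on GRCm38.p6. Between any pair of libraries, counts differed by more than counting error (chi-square per degree of freedom at least 3.82).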

Additional observations from a re-analysis of the deposited data

How the results depend on the processing

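The 6 tested enzymes kept their direction and size in nearly every alternative. Over 13 alternatives the log2 fold change ran from -2.07 to -1.97 for Ptgs1, from -1.49 to -1.19 for Ptgs2, from 1.55 to 2.13 for Ptgds and from 0.09 to 0.16 for Ptges2, and for Lta4h from -0.02 to 0.04, with a change of sign around 0. For Ltc4s it ran from -12.63 without JAG1 replicate 1 to -7.95. With a fold limit of 2, the counts over all genes went from 3211 higher and 3247 lower to 639 and 994, and those of the list of other pathway genes from 16 and 15 to 5 and 10. Pla2g4a, which did not pass, ran from -0.15 to 0.16 as single libraries were left out, and was 0.01 with limma-voom and 0 with the replicate block, and Ptgr2 ran from -0.05 to 0.13 as single libraries were left out; the cause was not tested. Same-numbered control and JAG1 libraries deviated together with correlations of 0.12, 0.06 and 0.11, and each control library correlated best with its own number, but the labels give no shared origin. The replicate block gave 3380 genes higher and 3331 lower, 17 and 15 in the pathway list. Depth limits Alox5, Alox5ap, Ptges and Ptgis, and the size of the fall of Ltc4s.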

Other observations

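Over the 6 libraries, the log2 levels of 3 genes with at least 5 CPM in control followed Ltc4s most closely: Tmem254a, Tmem254c and Ctnnal1, each with a Pearson correlation of 0.9994. Tmem254a had 126, 90 and 100 reads in control and 3, 0 and 0 in JAG1 libraries. Tmem254c, a near copy whose reads cannot be told apart from those of Tmem254a with certainty, had 118, 87 and 90 against 3, 0 and 0. These JAG1 counts cannot be told from absent. The genes were picked by the correlation, so their match to Ltc4s in JAG1 replicate 1 is no separate observation. Ctnnal1, which encodes a catenin-like protein, had 618, 555 and 563 reads in control and 382, 222 and 247 in JAG1 libraries. Among 9093 genes considered, 65 had a correlation above 0.99. Both the split into the 2 groups and the higher level of Ltc4s in JAG1 replicate 1 enter this correlation, and what the genes share was not tested.

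Markers of other cell types were near the limit of detection or mixed. The 8 endothelial markers summed to between 0.148 and 0.322 CPM in control and to at most 0.182 CPM in JAG1-overexpressing cells. Of the neuronal list, Tubb3 and Stmn2 were lower and Map2 was higher, and Snap25 had 0 reads in every library.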
